A study of Mus musculus with 9 samples.

Results

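Follistatin-like 1 (FSTL1), the secreted glycoprotein encoded by *Fstl1*, was followed together with 9 other genes. These encode a receptor reported for FSTL1, receptors and SMAD proteins of the bone morphogenetic proteins (BMPs), and FSTL3. The 10 genes were *Fstl1*, *Fstl3*, *Dip2a*, *Bmpr1a*, *Acvr1*, *Bmpr2*, *Smad1*, *Smad5*, *Smad9* and *Smad6*, taken by symbol from the table of 41128 genes, and all 10 were found in it. The levels come from nuclear RNA of PCM-1+ nuclei of the left ventricle of FVB mice at an age of 12 days, 1 library per mouse and 3 mice per group. PCM-1 coats the nuclei of cardiomyocytes, so that sorting on it enriches for them.

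Libraries C1 to C3 are from control mice, U1 to U3 from cKO mice labelled unstressed and S1 to S3 from cKO mice labelled score 1, a score that the paper bases on heart weight relative to body weight and the labels tie to volume overload of the left ventricle. The cKO genotype was Fstl1KO/fl;Tie2-Cre, that is, 1 knockout allele in every cell and 1 floxed allele recombined by a Cre of the endothelial and endocardial lineage. It was not aimed at the cardiomyocytes whose nuclei were sorted, and the 1 knockout allele is the change that these carry. The labels call the control mice wildtype, whereas the methods describe them as Fstl1 WT/fl. U3 has a title naming it a heterozygous cKO and the same genotype entry as its group. The paper's account of the RNA-seq gives the control mice as female and the unstressed cKO mice as male, so genotype and sex cannot be told apart in that comparison. The sex of the score 1 mice is not given there. Comparisons of score 1 mice, or of all cKO mice, with control mice can therefore not be taken as free of sex.

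BMPs are dimeric ligands that bring together type I receptors, among them BMPR1A (ALK3) and ACVR1 (ALK2), and type II receptors such as BMPR2. The type II receptor phosphorylates the type I receptor, which phosphorylates SMAD1, SMAD5 and SMAD9, and these enter the nucleus with SMAD4 to regulate target genes. SMAD6 is an inhibitory SMAD whose gene is itself a BMP target, which makes it a feedback brake. FSTL1 has been described as an extracellular BMP antagonist and as a ligand of DIP2A. In the heart BMP signalling is best known for its part in the formation of the valves, the septa and the myocardium.

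The libraries held 8262684 to 12698502 reads over all genes. Values are normalized counts, that is, reads per gene divided by a size factor of the library, and 1 read was worth 0.850 to 1.18 normalized counts. All 10 cardiomyocyte markers looked at were above 0 in every library, and their summed normalized count was 2320093 to 3848307. Most of this sum came from *Ttn* (mean 2361482 over all libraries), followed by *Myh6* (301453). Markers of other cells were present at far lower levels. The 15 markers of endothelial and endocardial cells, led by *Cdh5* and *Egfl7*, summed to 1254 to 1719 in control, 1663 to 1965 in unstressed cKO and 1675 to 2241 in score 1 libraries. For the 15 fibroblast markers, with *Postn* and *Fn1* the highest, the sums were 2628 to 3234, 2991 to 3942 and 2738 to 4878. The 10 genes listed for smooth muscle cells and pericytes summed to 5693 to 12541 over all libraries. They were led by *Abcc9* (mean 4141 over all libraries) and *Acta2* (3892), and which cells these transcripts came from was not tested. Of 10 leukocyte markers (*Cd68*, *Csf1r*), 9 were in the table and summed to 96.6 to 282. The 8 epicardial markers summed to 124 to 156 in control, 134 to 162 in unstressed cKO and 190 to 314 in score 1 mice. Of these 8, 3 were above 0 in every library, and *Tbx18* (mean 92.8 over all libraries) and *Wt1* (51.8) were the highest. Erythroid markers (*Alas2*, *Hbb-bs*) summed to 12.6 to 109, with *Hba-a2* at 0 in every library.

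None of the 9 genes that were tested passed in any comparison, where limma called 0 to 0.00743% of all genes. *Fstl3* was too low to be tested. *Bmpr1a*, the gene for a type I receptor, came closest, since it was lower in every cKO mouse than in every control mouse, with a mean difference of -0.53 on the log2 scale. *Smad5*, one of the SMADs that such receptors phosphorylate, was the only other of the 10 whose control and cKO libraries did not overlap. Of all tested genes, 1.22% lay wholly lower in cKO mice than in control mice. *Fstl1* itself had overlapping levels in the 3 groups.

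**Figure D1:**
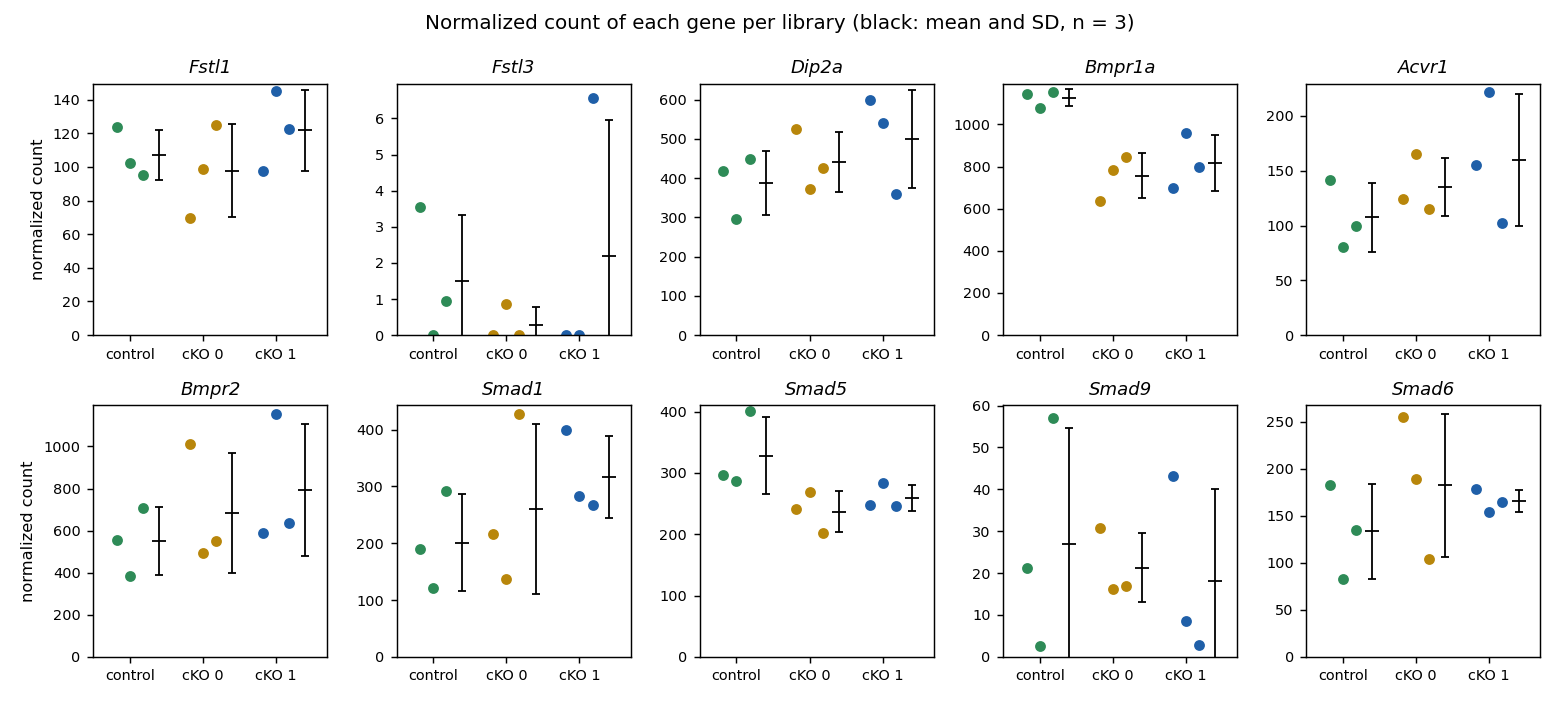
Normalized count (y axis, linear and from 0) of each of the 10 genes in every library, with control mice in green, unstressed cKO mice (cKO 0) in ochre and score 1 cKO mice (cKO 1) in blue. Black bars give the mean and SD of 3 mice, drawn down to 0 at most, and the 6 cKO points of Bmpr1a lie below the lowest control point, 1080.2.

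*Fstl1* (ENSMUSG00000022816.6; mm10, chromosome 16, 37776873 to 37836514, plus strand) had normalized counts of 124, 102 and 95.04 in C1 to C3, 69.6, 98.6 and 125 in U1 to U3 and 97.4, 145 and 123 in S1 to S3. The lowest value belonged to an unstressed cKO mouse and the highest to a score 1 mouse, and each group overlapped with the others. Against control mice the log2 fold change was -0.16 (95% confidence interval -0.99 to 0.67) in mice of the unstressed cKO group and 0.17 (-0.66 to 1.01) in score 1 mice. Neither passed the test in limma (adjusted p = 0.9995 and 0.955). The lower end of the interval in unstressed cKO mice, on a linear scale, was a level 0.502 times that of the control mice. Which part of the gene is removed in the knockout and floxed alleles was not given in the sources used here, so a count over the whole gene does not check the deletion. In bulk nuclei, fewer cells of a type and less RNA per cell cannot be told apart.

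*Fstl3* (ENSMUSG00000020325.10; chromosome 10, 79777272 to 79782630, plus strand), which encodes a secreted inhibitor of activins and myostatin, was barely detected, with 12 reads in all 9 libraries. Control mice gave 3, 0 and 1 reads, unstressed cKO mice 0, 1 and 0 reads, and score 1 mice 0, 0 and 7 reads. A library with 0 reads, of which there were 5, allows up to 3 reads, or 2.56 to 3.42 normalized counts in those libraries. The gene did not reach a normalized count of 10 in any library and was therefore the 1 of the 10 that was not tested. It shares 1157 exon bases with *Prss57* on the other strand, which was at 0 in every library.

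*Dip2a* (ENSMUSG00000020231.10; chromosome 10, 76259429 to 76345291, minus strand) encodes disco interacting protein 2 homolog A, reported as a cell surface receptor of FSTL1. It was read at 417, 295 and 449.5 in C1 to C3, 525, 372 and 427 in U1 to U3 and 599, 540.2 and 359 in S1 to S3. The highest 3 libraries were cKO mice, but the other cKO mice lay within the range of the control mice. The log2 fold changes of 0.20 (SE 0.28) and 0.36 (SE 0.28) against control mice did not pass the test (limma adjusted p = 0.9995 and 0.810).

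Among the receptors, *Bmpr1a* (ENSMUSG00000021796.9; chromosome 14, 34410734 to 34503341, minus strand) had the highest mean normalized count, although *Bmpr2* exceeded it in U1 and S2. Its normalized count was 1144, 1080.2 and 1156 in C1 to C3, 638, 782 and 846 in U1 to U3 and 696, 959 and 797 in S1 to S3. The control mice lay close together (1127 ± 40.6, SD, n = 3), above both the unstressed cKO mice (756 ± 107) and the score 1 mice (818 ± 132), and no cKO library reached the lowest control library. In unstressed cKO mice the log2 fold change was -0.58 (SE 0.22, 95% confidence interval -1.05 to -0.12), a level 0.667 times that of the control mice. It was -0.47 (SE 0.22, -0.94 to -0.006) in score 1 mice. The unadjusted p-values in limma were 0.017 and 0.047, and after adjustment over 13454 genes they were 0.9995 and 0.647. Leaving out any 1 library, U3 included, kept the log2 fold change of unstressed cKO mice between -0.67 and -0.47. Between both groups of cKO mice the difference was 0.11 (-0.36 to 0.58), and their levels overlapped. For the 6 cKO mice as 1 group, a comparison added after the values had been seen, the log2 fold change was -0.53 (SE 0.19, -0.93 to -0.13), with an adjusted p of 0.889 in limma and 0.385 in DESeq2. Both series of mouse numbers in the titles gave a like difference, -0.56 in the series with 1 control and 5 cKO mice and -0.49 in that with 2 control mice and 1 cKO mouse. The summed cardiomyocyte markers of the control mice, 2724105 to 3637543 and mostly *Ttn*, lay within the range of the cKO mice. The endothelial markers, by contrast, were higher in each cKO mouse than in C1 and C3. The part of the cell makeup in the level of *Bmpr1a* was not tested. *Bmpr1a* shares 290 exon bases with *Gm17110* on the other strand, a gene with a normalized count of at most 40.9, and the use of strand in counting was not given in the sources used here.

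*Acvr1* (ENSMUSG00000026836.10; chromosome 2, 58388644 to 58567157, minus strand), the gene for the type I receptor ALK2, was lower in level, with normalized counts of 142, 80.7 and 99.8 in C1 to C3, 124, 165 and 115 in U1 to U3 and 155, 222 and 102 in S1 to S3. The highest 3 libraries were cKO mice, while the lowest 2 were controls. The log2 fold changes were 0.35 (SE 0.40) and 0.54 (SE 0.40), and the groups overlapped (limma adjusted p = 0.9995 and 0.797).

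*Bmpr2* (ENSMUSG00000067336.6; chromosome 1, 59763400 to 59879014, plus strand) encodes a type II receptor of BMPs. Its normalized count was 557, 385 and 706 in C1 to C3, 1011, 492 and 552 in U1 to U3 and 590.0, 1156 and 638 in S1 to S3. In both groups of cKO mice 1 library stood well above its neighbours, U1 and S2, whereas the other 4 lay within the control range. The log2 fold changes of 0.29 (SE 0.32) and 0.51 (SE 0.32) did not pass the test (limma adjusted p = 0.9995 and 0.757).

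*Smad1* and *Smad5* encode SMADs that are phosphorylated by BMP type I receptors. *Smad1* (ENSMUSG00000031681.9; chromosome 8, 79338395 to 79399518, minus strand) was read at 189, 122 and 292 in C1 to C3, 216, 138 and 427 in U1 to U3 and 399.6, 283 and 268 in S1 to S3. Each score 1 mouse was above C1 and C2, only S1 was also above C3, and the highest level of all was in U3. The log2 fold change was 0.72 (SE 0.40, 95% confidence interval -0.12 to 1.56) in score 1 mice and 0.30 (SE 0.40) in unstressed cKO mice (limma adjusted p = 0.716 and 0.9995).

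*Smad5* (ENSMUSG00000021540.11; chromosome 13, 56703010 to 56742377, plus strand) had normalized counts of 297, 287 and 400.1 in C1 to C3, 241, 269 and 201 in U1 to U3 and 247, 284 and 246 in S1 to S3. Every cKO mouse was below every control mouse, though S2 at 284 and C2 at 287 were close. The log2 fold change was -0.46 (SE 0.29, 95% confidence interval -1.07 to 0.14) in mice of the unstressed cKO group and -0.33 (SE 0.29, -0.93 to 0.28) in score 1 mice, and both intervals held 0 (limma adjusted p = 0.9995 and 0.832). For all cKO mice together it was -0.39 (SE 0.25). Within the series of mouse numbers the difference was -0.26 and -0.46.

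*Smad9* (ENSMUSG00000027796.2; chromosome 3, 54755582 to 54801257, plus strand), the gene for the SMAD also known as SMAD8, was detected by 3 to 60 reads per library. Its normalized count was 21.3, 2.69 and 57.02 in C1 to C3, 30.8, 16.2 and 16.9 in U1 to U3 and 43.3, 8.55 and 2.81 in S1 to S3. The spread within the control mice was as wide as that over all libraries, and the 95% confidence interval of its log2 fold change ran from -1.84 to 2.53 in unstressed cKO mice. In that comparison its direction was not settled, since limma gave 0.34 and DESeq2 -0.35.

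*Smad6* (ENSMUSG00000036867.7; chromosome 9, 63953076 to 64022059, minus strand), the gene of the inhibitory SMAD, had normalized counts of 183, 82.5 and 135 in C1 to C3, 256, 189 and 104 in U1 to U3 and 179, 155 and 165 in S1 to S3. The score 1 mice lay close together, all within the control range, and the highest 2 values were in unstressed cKO mice. Against control mice the log2 fold changes were 0.43 (SE 0.40) and 0.38 (SE 0.40), with limma adjusted p-values of 0.9995 and 0.869.

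**Figure D2:**
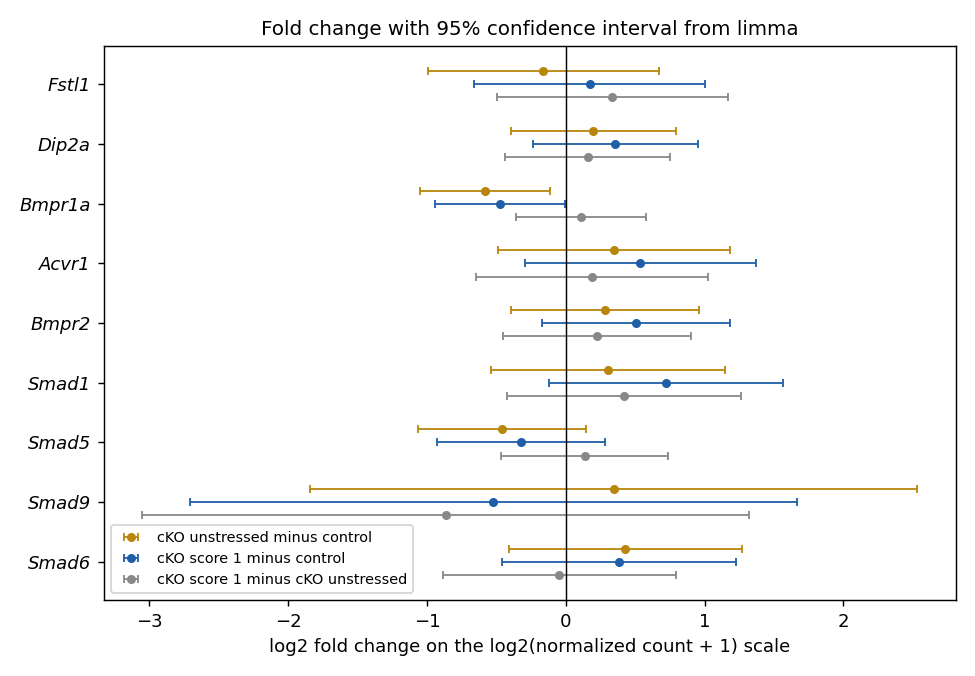
Log2 fold change (x axis, log2 scale with a pseudocount of 1) of the 9 tested genes in each comparison of 2 groups, as a point with its 95% confidence interval from limma. Only the intervals of Bmpr1a against control mice (ochre: unstressed cKO, blue: score 1) do not hold 0, and neither passed the test after adjustment.

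Counted over the 9 tested genes, none was called between unstressed cKO and control mice, against 0% of all 13454 tested genes. An unadjusted p under 0.05 was reached by 1 of the 9, *Bmpr1a*, which was lower, against 1.74% of all genes in that direction. In 2 of the 9, *Bmpr1a* and *Smad5*, the unstressed cKO mice lay wholly below the control mice, against 5.36% of all genes. Between score 1 and control mice none was called either (0% of all genes). The same gene, *Bmpr1a*, had an unadjusted p under 0.05 (3.29% of all genes in that direction), and *Bmpr1a* and *Smad5* again did not overlap (5.28%). Both comparisons share the 3 control mice and are therefore not independent of each other. In score 1 against unstressed cKO mice none of the 9 was called (0%), none had an unadjusted p under 0.05 (6.34% of all genes in either direction) and all overlapped (11.3% of all genes did not).

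Against the 6 other mice together, the score 1 mice had none of the 9 called (0.00743% of all genes) and none with an unadjusted p under 0.05 (8.09%), and all 9 overlapped (3.47% of all genes did not). The log2 fold change nearest to the threshold there was that of *Smad1*, 0.57 (SE 0.34, limma adjusted p = 0.690). For all cKO against control mice, none was called (0%), *Bmpr1a* alone had an unadjusted p under 0.05 (1.88% of all genes were lower at that p), and *Bmpr1a* and *Smad5* lay wholly below the control mice (1.22%). No gene of the 9 was called by DESeq2 or edgeR in any of the 5 comparisons either. Of all genes DESeq2 called 0.0599% in unstressed cKO and 0.19% in score 1 against control mice, 0.178% between the cKO groups, 0.388% against the 6 other mice and 0.215% in all cKO against control mice, while edgeR called 0%, 0%, 0%, 0.00743% and 0%. At an unadjusted p under 0.05, DESeq2 held 1 of the 9 in unstressed cKO against control mice and 0 in score 1 against control mice, and edgeR held 1 in each. In all cKO against control mice each of these tools held 1, and in the other 2 comparisons 0.

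Since *Bmpr1a* and *Acvr1* encode alternative type I receptors, their ratio was also looked at, after the single values had been seen and therefore as a description. *Bmpr1a* exceeded *Acvr1* by 8.07, 13.4 and 11.6 times in C1 to C3, 5.13, 4.74 and 7.34 times in U1 to U3 and 4.49, 4.32 and 7.81 times in S1 to S3. The lowest control ratio was above the highest cKO ratio, by a small margin. Relative to *Bmpr2*, the ratio of *Bmpr1a* was 2.06, 2.81 and 1.64 in C1 to C3, 0.631, 1.59 and 1.53 in U1 to U3 and 1.18, 0.829 and 1.25 in S1 to S3. These ranges also lay apart, 1.64 in C3 being close to 1.59 in U2. Of the counts of the 3 receptors together, *Bmpr1a* took 58.9 to 69.9% in C1 to C3, 35.97 to 55.9% in U1 to U3 and 41.0 to 51.9% in S1 to S3. The ratio of *Bmpr2* to *Acvr1* showed no such order, with 3.93 to 7.08 in control mice and 2.98 to 8.13 in cKO mice.

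For the SMADs, *Smad1* relative to *Smad5* was 0.638, 0.425 and 0.729 in C1 to C3, 0.896, 0.513 and 2.12 in U1 to U3 and 1.62, 0.997 and 1.09 in S1 to S3. The score 1 mice were all above the control mice, while U2 fell within the control range. The summed count of *Smad1*, *Smad5* and *Smad9* overlapped, at 412 to 749 in control mice and 423 to 690.1 in cKO mice. Their inhibitor *Smad6* stood at 0.180 to 0.361 of that sum in control mice and at 0.161 to 0.525 in cKO mice.

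**Figure D3:**
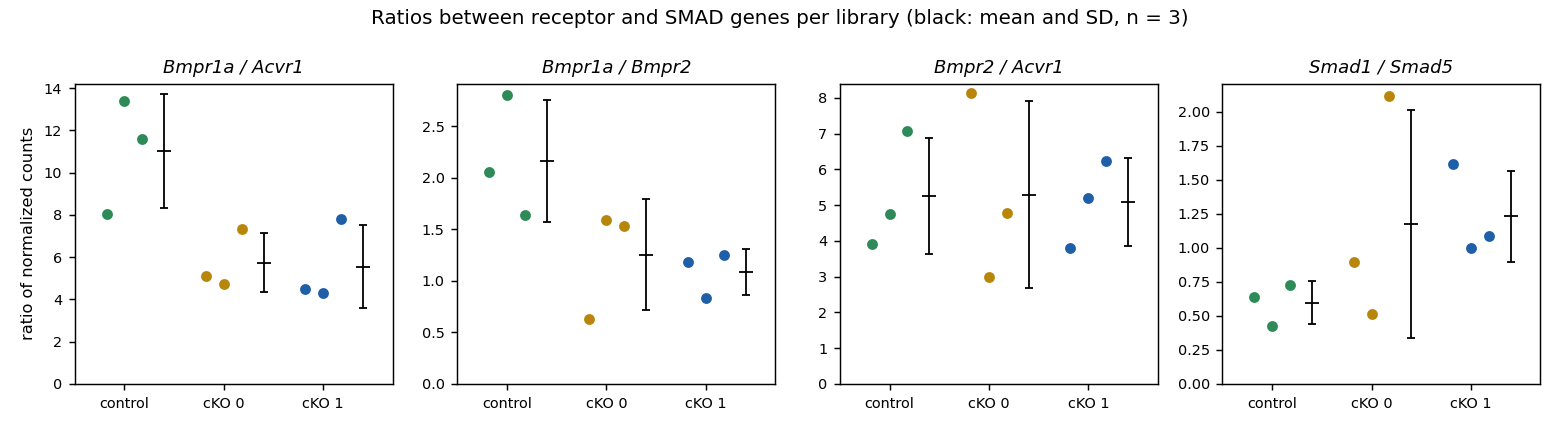
Ratios between the normalized counts of receptor genes and of SMAD genes (y axis, linear and from 0, no unit) in every library, by group (cKO 0: unstressed, cKO 1: score 1). The ratio of Bmpr1a to Acvr1 is 8.07 to 13.4 in control mice and 4.32 to 7.81 in cKO mice.

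Levels of different genes were compared as normalized counts per kilobase of exon, averaged over the 9 libraries. *Bmpr1a* led with 142 ± 30.4 (SD, n = 9) and was above the next gene, *Dip2a* at 53.9 ± 11.8, in every library. Then came *Smad6* (50.2), *Smad1* (41.4), *Bmpr2* (37.6), *Smad5* (37.02), *Acvr1* (27.8) and *Fstl1* (22.2), and each neighbour in this order overlapped with the next in its range over libraries. *Smad9* (4.13) and *Fstl3* (0.541) were lowest, and *Fstl1* exceeded *Smad9* in all 9 libraries. As nuclear RNA holds introns, the length of the whole gene was tried in place of that of its exons. *Bmpr1a* stayed first and *Smad9* and *Fstl3* last, whereas the genes between them changed places, with *Smad5* and *Bmpr2* next after *Bmpr1a*.

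Across the 36 pairs of the 9 tested genes, Pearson correlations of log2 levels over the 9 libraries ran from -0.56 (*Bmpr1a* with *Smad6*) to 0.71 (*Dip2a* with *Bmpr2*). *Bmpr1a* and *Smad5* had 0.69. These values describe 9 libraries that include the differences between groups. Among 13453 other genes, those with the profile most like that of *Fstl1* were *Ier2* (0.94), *Nsg1* (0.93), *Tmem170b* (0.92), *Parp1* (0.90) and *Rab11fip5* (0.90). For *Bmpr2* they were *Cdca4*, *Zfp462* and *Hm629797* (each 0.94), and for *Smad6* *Galnt1* (0.95), *Homer2* (0.93) and *Arhgap25* (0.92), all correlations over 9 libraries. They were picked as the highest of 13453 values and were not tested. Some of these genes had low normalized counts, such as *Ier2* (0 to 71.8), *Nsg1* (1.14 to 57.3) and *Cdca4* (6.28 to 32.5).

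The promoters of *Bmpr1a* and *Smad5*, whose control and cKO libraries did not overlap, are shown with that of *Smad6*, whose groups overlapped. These genes encode a receptor, a SMAD and the SMAD inhibitor of 1 pathway. RefSeq sequences of build GRCm38.p6, from 250 bases before to 50 after an annotated start, were matched for all 10 genes in 12 windows. The motif GGCGCC, a GC-rich element bound by BMP-activated SMADs, and GTCTAGAC, the palindromic SMAD box, were searched. Each reads the same on both strands, and neither can overlap the other. The capitals below mark GGCGCC in *Bmpr1a* (chr14:34502497-34502796, minus strand) and in the second of 3 windows of *Smad5* (chr13:56702802-56703101, plus strand), and GTCTAGAC in *Smad6* (chr9:64022010-64022309, minus strand).
Bmpr1a: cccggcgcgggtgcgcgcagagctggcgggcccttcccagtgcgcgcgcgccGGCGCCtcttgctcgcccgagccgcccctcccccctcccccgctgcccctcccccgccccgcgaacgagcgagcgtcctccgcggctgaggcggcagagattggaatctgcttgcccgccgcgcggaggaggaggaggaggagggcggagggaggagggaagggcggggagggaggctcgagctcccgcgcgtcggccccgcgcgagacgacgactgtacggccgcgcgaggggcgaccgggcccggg
Smad5: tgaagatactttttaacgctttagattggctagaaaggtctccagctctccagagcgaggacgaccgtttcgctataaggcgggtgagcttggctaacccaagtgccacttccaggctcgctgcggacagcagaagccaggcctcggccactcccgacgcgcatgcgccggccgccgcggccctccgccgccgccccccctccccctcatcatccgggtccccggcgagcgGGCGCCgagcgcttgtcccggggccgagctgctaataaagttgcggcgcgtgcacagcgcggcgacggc
Smad6: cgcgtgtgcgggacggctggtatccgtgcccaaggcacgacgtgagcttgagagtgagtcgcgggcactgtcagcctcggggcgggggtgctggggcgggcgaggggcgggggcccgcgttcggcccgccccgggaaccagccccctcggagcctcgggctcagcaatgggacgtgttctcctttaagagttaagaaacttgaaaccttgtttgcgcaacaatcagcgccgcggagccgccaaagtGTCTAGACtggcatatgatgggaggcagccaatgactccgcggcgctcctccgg

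GGCGCC began 198 bases before the start of *Bmpr1a* and 19 bases before that of the *Smad5* window shown. In the overlapping first window of *Smad5*, whose start is the gene start given above, the same site began 24 bases after the start. GGCGCC was found in 6 of the 12 windows, those of *Bmpr2*, *Smad9*, *Dip2a*, *Bmpr1a* and 2 overlapping windows of *Smad5*, and in 11.9% of 32851 promoter windows of mouse genes. The windows of the 10 genes were rich in G and C, at 79.3% for *Bmpr1a*, 67.0% for the *Smad5* window shown and 66.3% for *Smad6*, against a median of 52.7% over all windows. GTCTAGAC was found only in *Smad6* among the 10 genes, beginning 4 bases before the start, and in 0.213% of all windows. *Bmpr1a* and *Smad5*, the genes without overlap between cKO and control mice, both held GGCGCC, as did *Bmpr2*, *Dip2a* and *Smad9*, whose groups overlapped. A match describes letters and does not show that a SMAD binds there.

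Around these genes, 8 lists of the pathway held 104 different genes, of which 103 were in the table and 62 were tested. By limma 0 of the 62 were called in unstressed cKO against control mice and 0 in score 1 against control mice, as for all genes (0%). An unadjusted p under 0.05 was reached in unstressed cKO mice by 4 higher (6.45%) and 2 lower genes (3.23%), against 2.43% and 1.74% of all genes. In score 1 mice it was reached by 5 higher (8.06%) and 1 lower gene (1.61%), against 4.38% and 3.29%. DESeq2 called 1 of the 62 in score 1 against control mice (0.19% of all genes with an adjusted p), which was *Hand2*, and 0 in unstressed cKO mice (0.0599%).

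*Hand2*, a transcription factor of the developing ventricles and a BMP target, was read at 181, 234 and 179.6 in C1 to C3, 609, 181 and 322 in U1 to U3 and 507, 575 and 369 in S1 to S3. All score 1 mice were above all control mice, and U2 was the only cKO mouse within the control range. In score 1 mice the log2 fold change was 1.27 (SE 0.37), with an adjusted p of 0.474 in limma, 0.0332 in DESeq2 and 0.453 in edgeR. Among the 11 tested BMP target genes of the 18 listed, an unadjusted p under 0.05 was reached in score 1 mice by 2 that were higher (4.38% of all genes) and by none that was lower, and the median log2 fold change was 0.31 against -0.01 over all genes. In unstressed cKO mice that p was reached by 0 of the 11 (2.43% of all genes were higher and 1.74% lower at it), and the median was 0.43 against 0.01. Beside *Hand2*, the gene at that p in score 1 mice was *Atoh8* (1.39, SE 0.60, limma adjusted p = 0.621), a transcription factor that BMPs induce. *Id1*, the standard early target of BMP SMADs, was at 3.54, 16.1 and 10.5 in C1 to C3, 29.7, 45.1 and 33.7 in U1 to U3 and 3.61, 88.9 and 73.1 in S1 to S3. In 5 of 6 cKO mice it was above every control mouse, with S1 the exception, and the log2 fold change was 1.93 (SE 0.96) in unstressed cKO mice (limma adjusted p = 0.9995). *Gata4*, a cardiac transcription factor, had 0.45 (SE 0.23) in score 1 mice.

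*Bmp4*, the gene of a BMP ligand, was at 27.2, 61.01 and 28.5 in C1 to C3, 39.9, 111 and 163 in U1 to U3 and 115, 94.02 and 173 in S1 to S3. Apart from U1, each cKO mouse was above all control mice. Its log2 fold change was 1.74 (SE 0.55) in score 1 mice, with an adjusted p of 0.474 in limma and 0.160 in DESeq2. The summed epicardial markers, mostly *Tbx18* and *Wt1*, were higher in each score 1 mouse than in each control mouse, as given above. Between these groups the endothelial markers overlapped only by C2 (1719) and S3 (1675). The part of such cells in the levels of *Bmp4*, *Hand2* and *Id1* was not tested. Of 15 ligand genes 5 were tested, and an unadjusted p under 0.05 was reached by *Bmp4* alone, in each comparison with control mice (2.43% of all genes were higher at it in unstressed cKO, 4.38% in score 1 mice). *Bmp1*, which encodes a protease of procollagen and chordin and not a BMP, had 0.51 (SE 0.24) in unstressed cKO mice. *Gdf7* and *Bmp7*, both genes of BMP ligands, had 2.46 (SE 1.24) and -0.88 (SE 0.72).

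**Figure D4:**
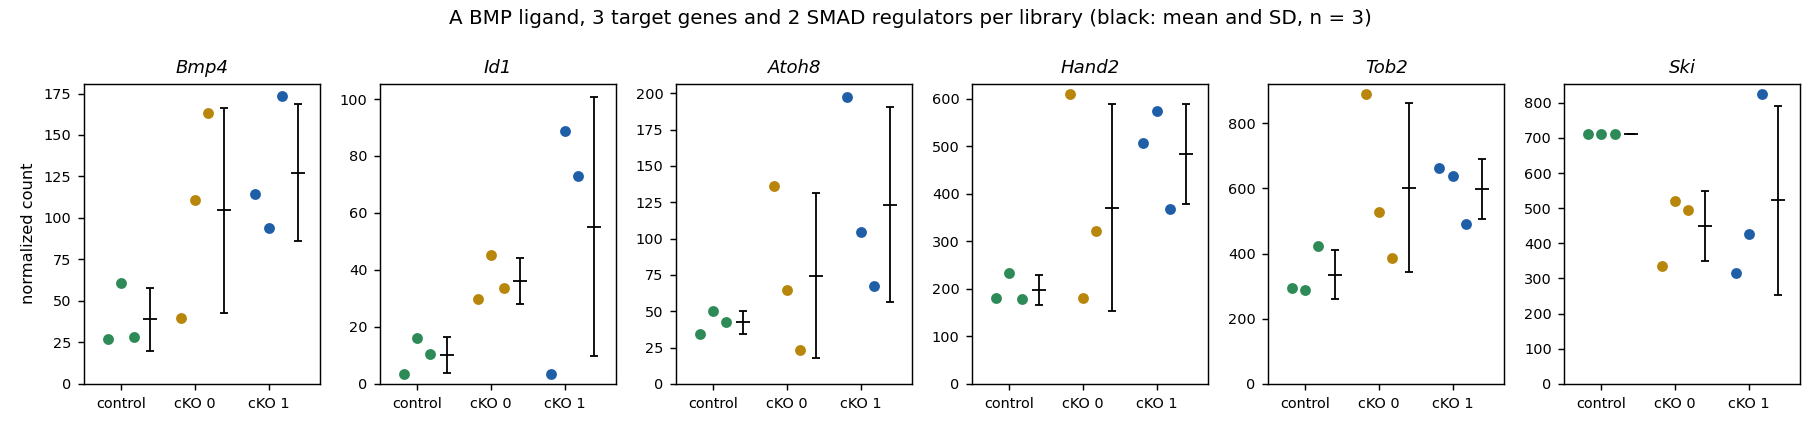
Normalized count (y axis, linear and from 0) of Bmp4, of the target genes Id1, Atoh8 and Hand2 and of the SMAD regulators Tob2 and Ski in every library, with the mean and SD of 3 mice in black (cKO 0: unstressed, cKO 1: score 1). These 6 genes were chosen after their values had been seen, and the score 1 mice lie above all control mice in Bmp4, Atoh8, Hand2 and Tob2. The share of all genes with that order is not given here.

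The list of other receptors and co-receptors had 11 of 14 genes tested, of which an unadjusted p under 0.05 was reached by *Tgfbr3* (higher, 2.43% of all genes) and *Rgmb* (lower, 1.74%) in unstressed cKO mice and by *Fkbp1a* (lower, 3.29%) in score 1 mice. *Rgmb*, a BMP co-receptor of the repulsive guidance molecule family, was at 24.8, 17.05 and 51.3 in control mice and at 2.28, 1.70 and 1.77 in unstressed cKO mice. In U1 to U3 1 read was worth 1.14, 0.850 and 0.887 normalized counts, so these levels rest on few reads. In score 1 mice *Rgmb* was at 20.7, 0 and 14.05, so that only S1 reached the control range. The log2 fold change of -3.32 (SE 1.15) in unstressed cKO mice had an adjusted p of 0.9995 in limma and 0.0701 in DESeq2. *Rgma*, of the same family, was at 174 to 195 in unstressed cKO mice against 88.4 to 123 in control mice (0.74, SE 0.37). *Tgfbr3*, which encodes betaglycan, had 0.61 (SE 0.28) in unstressed cKO mice. *Fkbp1a*, whose product FKBP12 holds type I receptors inactive, had -0.80 (SE 0.38) in score 1 mice, and none of the 4 passed the test.

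Of 20 SMAD partners and regulators all 20 were tested, and an unadjusted p under 0.05 was reached by *Tob2* (higher, 2.43% of all genes) and *Ski* (lower, 1.74%) in unstressed cKO mice and by *Tob2* alone in score 1 mice (higher, 4.38%). *Tob2*, of the antiproliferative TOB family, was at 295, 289 and 423 in C1 to C3, 890.2, 527 and 388 in U1 to U3 and 662, 638 and 492 in S1 to S3. It was above all control mice in each cKO mouse but U3 (score 1: 0.84, SE 0.30, limma adjusted p = 0.579). *Ski*, a co-repressor of SMADs, was at 712.5, 712.4 and 711.8 in control mice, at 334, 519.6 and 495 in unstressed cKO mice and at 315, 427 and 826 in score 1 mice. All cKO mice but S3 were below the controls (unstressed: -0.69, SE 0.31, limma adjusted p = 0.9995). *Tob1*, of the same family as *Tob2*, had -0.39 (SE 0.26) in score 1 mice, and the ubiquitin ligase gene *Smurf1* 0.41 (SE 0.29).

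In the remaining lists no gene was called by limma or DESeq2. Of 17 extracellular antagonist genes only 4 were tested, and 0 had an unadjusted p under 0.05 in either comparison of a cKO group with control mice. *Nbl1*, the gene of a secreted BMP antagonist, was above every control mouse in all 6 cKO mice, at 4.73, 20.6 and 19.01 in control mice and 21.3 to 38.5 in cKO mice (score 1: 1.33, SE 0.72, limma adjusted p = 0.713). The share of all genes that lay wholly above the control mice in this way is not given here. In unstressed cKO mice *Dand5*, which encodes another secreted antagonist, had 1.14 (SE 0.91), and the protease gene *Tll2* 0.33 (SE 1.13). *Twsg1*, the gene of an extracellular modulator of BMPs, had 0.28 (SE 0.36) in score 1 mice. Of 13 genes with a follistatin domain or of the SPARC family 6 were tested, and 1 gene in each of both comparisons, higher in cKO mice, had an unadjusted p under 0.05 (2.43% of all genes in unstressed cKO and 4.38% in score 1 mice). These were *Smoc2*, which encodes a matrix protein that can inhibit BMPs, in unstressed cKO mice (1.45, SE 0.64) and *Fstl4* in score 1 mice (1.06, SE 0.46). *Smoc2* was at 301 in U1 against 79.9 and 56.8 in U2 and U3, and its log2 fold change was 0.73 without U1. *Fstl4* was at 514 in S1 against 215 and 160 in S2 and S3, and its log2 fold change was 0.57 without S1. *Tmeff1*, the gene of a membrane protein, had 2.48 (SE 1.20) in score 1 mice, with control values of 21.3, 0 and 7.60, and 1.21 without C2. *Agrn*, the gene of the matrix protein agrin, had 0.57 (SE 0.27) in score 1 mice, all of which lay within the control range of 866 to 2310.

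The paralogs of *Dip2a* and other reported partners of FSTL1 gave 3 tested genes of 4, with 0 at an unadjusted p under 0.05 against control mice. *Dip2b* had 0.39 (SE 0.22) and *Dip2c* -0.26 (SE 0.21) in score 1 mice, and *Tlr4*, the innate immune receptor gene, -0.44 (SE 0.28) in unstressed cKO mice. Of the 5 genes of activin and myostatin ligands, which FSTL3 binds or which belong to the same family, 3 were tested, again with 0 at that p. *Inha*, the gene of the inhibin alpha chain, was at 168 to 232 in control mice and 288 to 302 in the unstressed cKO group (0.64, SE 0.33). *Inhba* and *Gdf11* had -1.67 (SE 1.04) and -1.47 (SE 1.10) in score 1 mice, and the control values of *Gdf11* themselves ran from 2.85 to 191.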

How the data were processed

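The deposited table holds normalized counts, a signal that the authors made by dividing the reads per gene by 1 size factor per library. The submitters' processing notes name STAR, mm10 and DESeq2. Versions, annotation, counting program and strand setting: not given in the sources used here. In every library 100% of values above 0 were whole multiples of 1 read (tolerance 0.001), so reads were recovered for DESeq2 and edgeR. Positions and exon lengths are from GENCODE M21 (mm10).

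Fold changes are on the log2(normalized count + 1) scale, which understates the change of low genes. The 13454 genes with 10 or more normalized counts in 3 or more libraries were tested with limma 3.58.1 with a variance trend (R 4.3.3), two-sided, with Benjamini-Hochberg adjustment over all of them and a threshold of 0.05. The fit was tested on simulated data. The 3 groups shared 1 fit. Score 1 mice against the other 6, and all cKO against control mice (added after the values were seen), were fits of 2 groups. Alternatives were other pseudocounts, filters and normalizations, DESeq2 1.42.0, edgeR 4.0.16, the series of mouse numbers as a covariate, the groups compared alone and leaving out each library. Each library was taken as 1 mouse from the titles. Replicates are not stated to be from separate litters, and p-values measure the spread between these mice. Intervals from limma cover the spread between mice, and the limit for 0 reads covers counting error only.

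The 10 genes, the 8 pathway lists and the 7 marker lists were chosen with earlier results of these data known. From each pathway list, up to 4 genes with the smallest p against control mice are named, any called gene, the 5 genes most like *Fstl1* and the 3 most like *Bmpr2* and *Smad6*, and the 2 most abundant markers per list. For named genes whose cKO mice lay wholly above the control mice, the share of all genes with that order is not given here. The result for 1 marker gene is not reported here.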

Additional observations from a re-analysis of the deposited data

Results flagged for a closer look

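*Fstl3* in the cKO mice stood out because 1 library lay far from the others. Score 1 mouse S3 had 6.56 normalized counts from 7 reads, while the other 5 cKO mice had 0.850 or less, and the gap was 0.870 of the whole range. Among the 6 control and unstressed cKO mice, C1 at 3.54 normalized counts (3 reads) lay apart by 0.732 of the range. Both are above Dixon's 95% critical value for 6 samples. The 10 genes in 2 groups gave 20 such comparisons, chance marks about 1 in 20, and both values rest on few reads (7 and 3).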

How the results depend on the processing

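Of the 9 tested genes 0 were called in each of the 5 comparisons under every alternative run, and the lowest adjusted p of any of them was 0.385 (*Bmpr1a*, all cKO against control mice, DESeq2). Of 832 fold changes under an alternative, 798 kept their direction and 34 did not, and for *Bmpr1a* and *Smad5* all kept it against control mice. Part of the 832 could not change direction. Other filters and the groups compared alone left the limma estimate as it was. In the fit of 3 groups, so did leaving out a library of the group not compared. With the series of mouse numbers as a covariate, unstressed cKO against control mice gave log2 fold changes of -0.089 for *Dip2a*, -0.16 for *Acvr1*, -0.67 for *Smad9* and -0.80 for *Tll2*, that of *Smad6* between the cKO groups 0.087 and that of *Fstl1* in all cKO mice -0.00097. *Fstl1* in all cKO mice was also -0.040 with quantile normalization and -0.0058 with TMM, against 0.0065. *Smad9* in unstressed cKO mice was -0.35 with DESeq2 and -0.36 with edgeR. The causes were not tested.

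Leaving out 1 library gave ranges across 0 in unstressed cKO against control mice for *Fstl1* (-0.36 to 0.061), *Bmpr2* (-0.033 to 0.49), *Smad1* (-0.13 to 0.68), *Smad9* (-0.75 to 1.24) and *Tll2* (-0.36 to 0.76), and in score 1 against control mice for *Smad9* (-1.62 to 0.37). Without crossing 0 it moved *Smoc2* (0.73 to 1.93) and *Gdf7* (1.46 to 3.51) in unstressed cKO against control mice. In score 1 against control mice it so moved *Fstl4* (0.57 to 1.53), *Tmeff1* (1.21 to 3.45), *Nbl1* (0.71 to 1.67), *Inhba* (-2.64 to -1.08) and *Gdf11* (-2.98 to -0.16). Between the cKO groups the ranges across 0 were -0.010 to 0.22 for *Bmpr1a*, -0.083 to 0.54 for *Bmpr2*, -0.082 to 0.48 for *Acvr1* and -0.40 to 0.24 for *Smad6*. Against the 6 other mice they were -0.19 to 0.011 for *Smad5* and -1.65 to 0.12 for *Smad9*, and in all cKO mice -0.081 to 0.13 for *Fstl1* and -1.18 to 0.80 for *Smad9*. No paired analysis was possible because the replicate numbers were given in order and pair no mice. With 3 mice per group the 95% intervals were wide, from a fold of 0.482 to 0.922 for *Bmpr1a* and from 0.279 to 5.77 for *Smad9* in unstressed cKO against control mice, and *Smad9* and *Fstl3* had few reads.

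Among the named genes of the pathway lists, the call of *Hand2* in score 1 against control mice appeared with DESeq2 alone (1.29, adjusted p = 0.0332), and its adjusted p over the alternatives ran up to 0.766. With the length of the whole gene in place of that of the exons, 7 of the 10 genes changed their place in the order of levels.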
